A study of Mus musculus with 6 samples.

Results

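The immediate early genes Fos, Jun, Junb, Egr1, Atf3, Ier2 and Dusp1 and the growth arrest and DNA damage genes Gadd45a, Gadd45b and Gadd45g were examined in mouse liver. They were found through the RefSeq accession that the array files give for each non-control probe. All 10 genes were on the array, with 11 probes among 56605, and they are 10 of the 22911 genes for which a symbol was found. Junb had 2 probes and every other gene had 1. The livers came from male mice, 12 weeks old, that were fed either regular granulated food (control, 3 mice) or a food of 75% regular granulate and 25% soy bean powder (soy, 3 mice) for 28 days. The strain is not given in the sources used here. RNA of each mouse was hybridized to 1 Agilent array with 1 colour (Cy3). Of the 59305 non-control spots, 37010, 36366 and 38163 were well above background on control arrays 1 to 3, and 31308, 31988 and 32498 on soy arrays 1 to 3. Slide 1 carried controls 1 and 2 with soy 1, slide 2 carried soy 2, and slide 3 carried control 3 with soy 3. Precision is limited by the number of arrays, 3 per group.

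Immediate early genes are transcribed within minutes of a stimulus without new protein synthesis, mainly through kinases that act on factors already bound at their promoters. Fos, Jun, Junb and Atf3 encode basic leucine zipper proteins that pair to form AP-1 and related factors, Egr1 encodes a zinc finger factor, and Dusp1 encodes a phosphatase that switches off the stress-activated MAP kinases. Gadd45 proteins are small acidic proteins that bind other proteins, among them the kinase Map3k4, PCNA and the cell cycle kinase Cdk1. In the liver, genes of both kinds respond to partial hepatectomy, fasting, hormones and injury.

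Promoters were held for 8 of the 10 genes in a RefSeq table of GRCm38.p6, from 250 bases before to 50 after the start of the gene. Those of Ier2 and Egr1 were not analysed here. The patterns searched, on both strands, were TGACGTCA (the cAMP response element), the shorter TGACG, which lies inside it, TGANTCA (the AP-1 site), CCAAT and the CArG box. The promoters of Fos and Junb, as immediate early genes, and of Gadd45a and Gadd45b, the pair with higher signal in soy livers, are printed with the matches in capitals.
Fos, chr12:85473640-85473939, plus strand: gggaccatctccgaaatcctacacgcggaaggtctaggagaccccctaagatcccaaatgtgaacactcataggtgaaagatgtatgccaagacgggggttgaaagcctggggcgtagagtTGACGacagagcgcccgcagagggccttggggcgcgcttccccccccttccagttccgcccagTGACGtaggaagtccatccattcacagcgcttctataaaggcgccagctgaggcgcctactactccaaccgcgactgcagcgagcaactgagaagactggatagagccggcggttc
Junb, chr8:84978699-84978998, minus strand: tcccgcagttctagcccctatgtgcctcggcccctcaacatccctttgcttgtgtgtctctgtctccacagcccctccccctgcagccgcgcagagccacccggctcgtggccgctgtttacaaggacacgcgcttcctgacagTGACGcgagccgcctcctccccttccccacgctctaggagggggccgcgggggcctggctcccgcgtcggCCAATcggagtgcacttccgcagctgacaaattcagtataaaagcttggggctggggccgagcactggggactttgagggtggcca
Gadd45a, chr6:67037358-67037657, minus strand: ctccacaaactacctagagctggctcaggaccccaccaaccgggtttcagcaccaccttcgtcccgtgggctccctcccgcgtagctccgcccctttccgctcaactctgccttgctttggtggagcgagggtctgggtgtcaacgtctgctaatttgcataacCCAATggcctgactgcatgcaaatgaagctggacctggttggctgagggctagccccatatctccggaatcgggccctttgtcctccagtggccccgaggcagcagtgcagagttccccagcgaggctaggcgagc
Gadd45b, chr10:80929841-80930140, plus strand: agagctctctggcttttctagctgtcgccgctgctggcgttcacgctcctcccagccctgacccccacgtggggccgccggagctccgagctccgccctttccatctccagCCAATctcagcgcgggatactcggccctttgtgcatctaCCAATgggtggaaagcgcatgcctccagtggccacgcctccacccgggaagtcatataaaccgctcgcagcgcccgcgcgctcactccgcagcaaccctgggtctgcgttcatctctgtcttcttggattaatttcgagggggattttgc

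In the immediate early promoters the short element TGACG occurred in Fos, Junb, Atf3 and Dusp1, 4 of 5, and in none of the 3 Gadd45 promoters. Of all 32851 promoters in the table, 20.8% held it. Counted from the start of the gene, it began at positions -129 and -66 in Fos and at -106 in Junb. The full element TGACGTCA was found in Dusp1 alone, at position -143, and 1.79% of all promoters held it. CCAAT occurred in all 3 Gadd45 promoters, and in Jun, Junb and Atf3, against 37.4% of all promoters. It began at position -86 in Gadd45a and at -139 and -100 in Gadd45b. No AP-1 site and no CArG box lay in these windows, and 7.81% and 1.63% of all promoters held them. A match is a run of letters and was not tested as a binding site.

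Signals are given as normalized intensity on the log2 scale, and the levels of different probes were not compared, since probes differ in brightness. The difference between soy and control livers was fitted with limma, and a gene passed at a Benjamini-Hochberg adjusted p under 0.05, over all 56605 probes, with a fold change above 1.5 or under 0.66. By this rule 0 of the 10 genes passed, whereas 0.532% of all genes did (0.34% higher and 0.192% lower in soy). Among probes, 0 of the 11 passed, against 0.35% of all (0.208% higher and 0.141% lower). At an unadjusted p under 0.05, 3 of the 10 stood below (Junb, Gadd45a and Gadd45b), and 14.2% of all genes did. The arrays of the groups stood apart without overlap for 4 of the 10 on the brightest probe, Gadd45a and Gadd45b being higher in soy and Junb and Ier2 lower, against 20.4% of all genes (9.66% higher and 10.8% lower). The fitted change was below 0 for all 7 immediate early genes, with a median of -0.33 on the log2 scale, and above 0 for 2 of the 3 Gadd45 genes. The median over all genes was -0.0057. In whole liver, fewer cells of a type and less RNA per cell cannot be told apart.

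**Figure D1:**
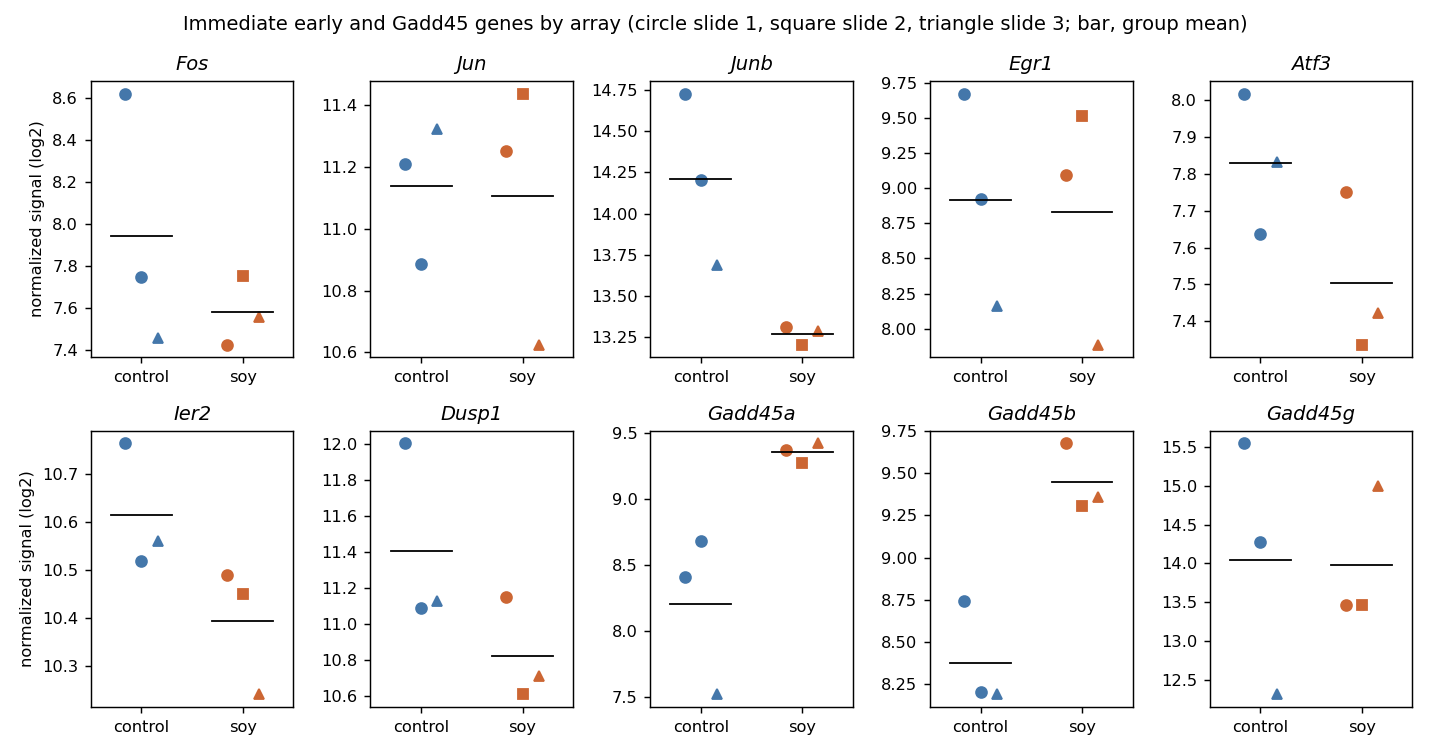
Normalized signal (log2, vertical axis, a separate range in each panel) of the 10 genes on each array of control and soy livers, by the brightest probe. Symbols mark the slide and bars the group means. The 3 soy arrays sit above all control arrays for Gadd45a and Gadd45b and below them for Junb and Ier2, while the other groups overlap.

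Gadd45b encodes a stress sensor induced in liver by NF-kB and by the xenobiotic receptor CAR. Its signal (NM_008655) was 8.74, 8.20 and 8.19 on control arrays 1 to 3 and 9.68, 9.30 and 9.36 on soy arrays 1 to 3. All soy values lay above all control values, and the lowest soy array exceeded the highest control array. The means were 8.38 ± 0.31 and 9.45 ± 0.20 (log2, SD, n = 3), a difference of 1.07 (SE 0.18, 95% interval 0.65 to 1.49), which is 2.10-fold on the linear scale. The adjusted p from limma was 0.0681, so the gene lay just outside the threshold. Without control 1 it passed (1.25, adjusted p = 0.0477), and without any other array it did not. Within slide 1 the difference was 1.21 and within slide 3 it was 1.17.

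Gadd45a encodes the member of the family that p53 induces after DNA damage. Its signal (NM_007836) was 8.41, 8.68 and 7.52 in control livers 1 to 3 and 9.37, 9.27 and 9.42 in soy livers 1 to 3. The soy livers lay close together above every control liver, and control 3 was the lowest of all arrays. The difference was 1.15 (SE 0.27, 95% interval 0.52 to 1.78, adjusted p = 0.155 with limma), or 2.22-fold, and the gene did not pass. The SD was 0.61 among control livers and 0.077 among soy livers. Within slide 1 the difference was 0.82, and within slide 3, which holds control 3, it was 1.90.

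Gadd45g encodes the third paralogue, known for its induction by cytokines. Its signal (NM_011817) ran from 12.32 in control 3 to 15.54 in control 1, with 14.27 in control 2. Soy livers gave 13.46, 13.47 and 14.997, inside the control range. The difference was -0.069 (SE 0.78, adjusted p = 0.984 with limma), and its interval, -1.88 to 1.75, holds changes as large as those of Gadd45a and Gadd45b. The direction was opposite on the slides, with -1.45 within slide 1 and 2.68 within slide 3. Whether the paralogues differ in their change was not tested.

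Junb, the AP-1 subunit that often opposes Jun, had the largest difference among the immediate early genes. Its brighter probe (NM_008416) gave 14.73, 14.20 and 13.69 in control livers and 13.31, 13.21 and 13.29 in soy livers. The soy livers were nearly equal and all lay below the lowest control. The difference was -0.94 (SE 0.23, 95% interval -1.48 to -0.39, adjusted p = 0.178 with limma), and it was -0.68 without control 1. The dimmer probe gave 7.24, 7.48 and 7.20 in control and 7.13, 6.94 and 6.75 in soy livers, again without overlap, but was well above background on 1 of 3 soy arrays. Its difference was -0.36 (SE 0.13, adjusted p = 0.360). Within slides 1 and 3 the brighter probe differed by -1.15 and -0.40.

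Fos, the partner of Jun proteins in AP-1, was brightest in control 1 with 8.62 (NM_010234), against 7.75 and 7.45 in controls 2 and 3. Soy livers gave 7.43, 7.75 and 7.56, close to these other controls, with soy 1 just below the lowest of them. The difference of -0.36 (SE 0.28, adjusted p = 0.670 with limma) became -0.022 when control 1 was left out, and within slide 3 it was 0.10. Jun (NM_010591) was 11.21, 10.89 and 11.32 in control and 11.25, 11.44 and 10.62 in soy livers. The groups overlapped, with a difference of -0.034 (SE 0.22, 95% interval -0.55 to 0.48, adjusted p = 0.969). Atf3, a stress-induced repressor that dimerizes with Jun proteins, was 8.02, 7.64 and 7.83 in control and 7.75, 7.34 and 7.42 in soy livers (NM_007498). Only soy 1 lay inside the control range, and the difference was -0.33 (SE 0.15, adjusted p = 0.466).

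Egr1 (NM_007913), the zinc finger factor, was 9.67, 8.92 and 8.16 in control livers and 9.09, 9.52 and 7.89 in soy livers. Both groups spanned a wide range, with an SD of 0.76 and 0.85. The difference was -0.087 (SE 0.48, 95% interval -1.21 to 1.04, adjusted p = 0.963 with limma). Ier2 (NM_010499), a nuclear protein of the early response, was 10.76, 10.52 and 10.56 in control and 10.49, 10.45 and 10.24 in soy livers. Its groups did not overlap, by a margin that was small beside the SD of 0.13 in each group, and its difference was -0.22 (SE 0.12, adjusted p = 0.534). Dusp1 (NM_013642) was 12.004, 11.09 and 11.13 in control and 11.15, 10.61 and 10.71 in soy livers. Soy 1 lay inside the control range, and the difference of -0.58 (SE 0.26, adjusted p = 0.457) became -0.29 without control 1.

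**Figure D2:**
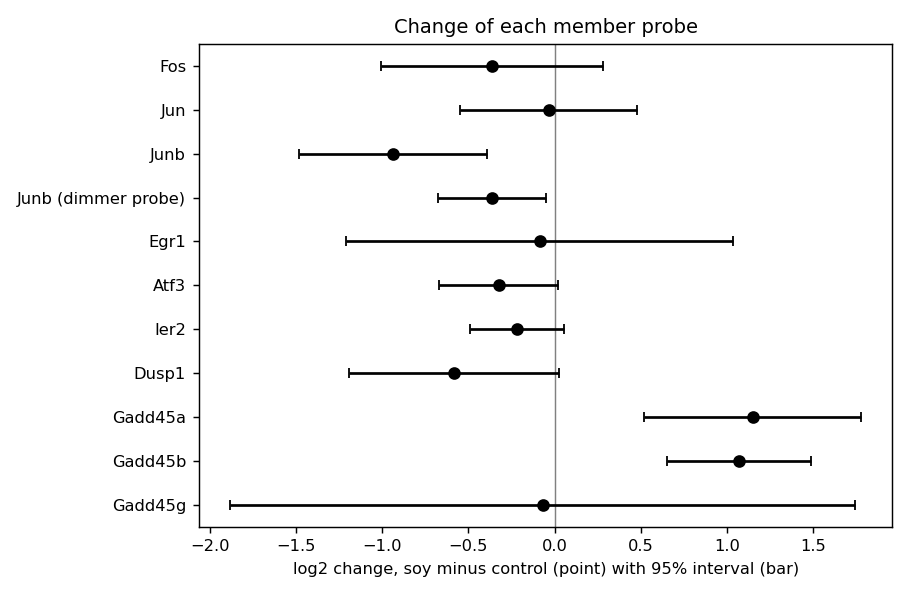
Log2 change of each member probe, soy minus control (points), with the 95% interval of the fit before any adjustment for multiple testing (bars). The intervals of Gadd45a, Gadd45b and both Junb probes lie on one side of 0, and that of Gadd45g is the widest, from -1.88 to 1.75.

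The genes varied among mice of the same group. The SD pooled over both groups was 1.31 for Gadd45g and 0.80 for Egr1 (log2), and among 13513 genes well above background on all arrays 0.118% and 0.792% had a larger one. Of the 10 genes, 7 were among the 10% with the largest SD, whose median over the 13513 genes was 0.158. Ier2, Atf3 and Gadd45b were not, with an SD of 0.13, 0.20 and 0.26. Control 1 was the highest of the 3 controls for 8 of the 10 genes, all but Jun and Gadd45a, against 39.2% of all genes. It was the highest of the 6 arrays for 7 of the 10, against 21.6% of all genes. With control 1 left out, the median change of the 10 genes moved from -0.15 to -0.010. Egr1, Jun and Gadd45g then had a change above 0 (0.29, 0.0013 and 0.68), and none of these passed.

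**Figure D3:**
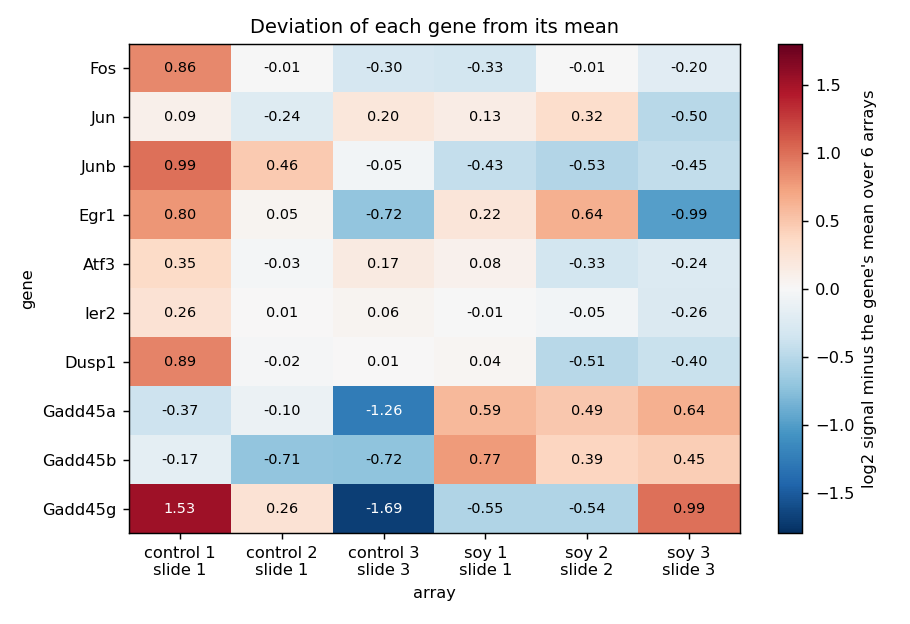
Log2 signal of each gene on each array minus its mean over the 6 arrays (colour and printed value), with the slide of each array. Control 1 stands high for Fos, Junb, Egr1, Dusp1 and Gadd45g, whereas Gadd45a and Gadd45b are high on the 3 soy arrays.

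Over the 6 arrays, 13488 of the genes well above background on all arrays were compared by Pearson correlation. Most like Fos were Dnaja4, a co-chaperone (r = 0.996), Igflr1 (r = 0.993) and Snrnp70, a U1 spliceosome protein (r = 0.992). Each was highest in control 1, for example Dnaja4 with 11.32 against 10.48 to 10.67 on the other arrays. Those most like Gadd45b were Gsta2 (r = 0.999), a glutathione transferase, Ephx2 (r = 0.996), the soluble epoxide hydrolase, and Clstn3 (r = 0.994). All 3 were higher in soy without overlap. Gsta2 was 13.10, 11.87 and 11.79 in control and 15.11, 14.22 and 14.33 in soy livers, with a difference of 2.30 (SE 0.38, adjusted p = 0.0652 with limma). Clstn3 rose by 1.44 (SE 0.19, adjusted p = 0.0347), and Ephx2 differed by 0.51 (SE 0.11, adjusted p = 0.117). These are the closest of many genes over few arrays, and the likeness is a description. Being highest in control 1, or higher in soy without overlap, follows from how these genes were chosen. It adds no evidence on Fos or Gadd45b.

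Of 24 other early response genes, 1 passed, and it fell. Klf10, a zinc finger factor of the TGF-beta early response, decreased by 0.86 (SE 0.13, adjusted p = 0.0473 with limma) on the log2 scale on its brighter probe and passed with none of the 6 arrays left out. Its dimmer probe differed by 0.032 and was well above background on 1 of 3 arrays in each group. The median change of the list was -0.30. Without overlap, 7 genes were lower and 1 higher in soy, against 10.8% and 9.66% of all genes. The lowest were Ccn2, a matrix protein regulated by YAP, with -1.29 (SE 0.43, adjusted p = 0.306), and Btg2, an antiproliferative gene, with -1.17 (SE 0.18, adjusted p = 0.0542). Btg2 was 10.11, 10.26 and 9.55 in control and 8.80, 8.71 and 8.89 in soy livers, and it passed without control 3 (-1.38 on the brighter probe, adjusted p = 0.0227, and adjusted p = 0.0490 on the dimmer). The highest were Myc, the growth-related transcription factor, with 1.18 (SE 0.28, adjusted p = 0.165), and Klf6 with 0.53 (SE 0.25, adjusted p = 0.475). Myc was 9.35, 9.89 and 9.27 in control and 10.35, 10.37 and 11.32 in soy livers, without overlap.

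Of 11 other AP-1 subunits and partners on the array, 0 passed, with a median of -0.29. Here 5 were lower and 2 higher in soy without overlap, against 10.8% and 9.66% of all genes. Among the lower ones, Batf was well above background on 2 of 3 soy arrays. Maff and Jdp2, a small Maf protein and a repressor of AP-1, were the lowest, with -1.18 (SE 0.44, adjusted p = 0.372) and -0.67 (SE 0.18, adjusted p = 0.218). For Maff control 1 stood apart at 10.52, against 9.04 and 8.84 in the other controls and 8.72, 8.40 and 7.75 in soy. Mafg and Batf3 were the highest with 0.41 and 0.17 (adjusted p = 0.355 and 0.598). Among 21 upstream kinases and factors 0 passed, and the median was -0.029. Mrtfb, a coactivator of the serum response factor, differed by 0.48 (SE 0.13, adjusted p = 0.212), without overlap. Mrtfa and Map2k4 were lowest with -0.33 and -0.26 (adjusted p = 0.260 and 0.617), and Srf, the serum response factor, differed by -0.074 (SE 0.11, adjusted p = 0.835). Of 9 further MAP kinase phosphatases 0 passed. Dusp10 and Dusp16 were the highest with 0.44 and 0.16 (adjusted p = 0.332 and 0.632), and Dusp6 and Dusp8 the lowest with -0.41 and -0.35 (adjusted p = 0.641 and 0.675).

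Of 8 binding partners of Gadd45 proteins 0 passed, with a median of 0.043. Cdk1 and Map3k4 were the highest, with 0.46 (SE 0.12, adjusted p = 0.184) and 0.32 (SE 0.10, adjusted p = 0.297), both without overlap, Cdk1 being well above background on 2 of 3 arrays in each group, and Tdg and Map2k7 the lowest with -0.20 and -0.14 (adjusted p = 0.626 and 0.645). Among 15 p53 targets 0 passed and the median was 0.017. Cdkn1a, the cell cycle inhibitor p21, was 9.21, 7.26 and 8.39 in control and 7.78, 7.31 and 9.61 in soy livers, a difference of -0.056 (SE 0.66, adjusted p = 0.984). The extremes of this list were Bbc3 and Perp with 0.59 and 0.29 (adjusted p = 0.218 and 0.336) and Phlda3 and Trp53inp1 with -0.53 and -0.24 (adjusted p = 0.370 and 0.780). Of 11 NF-kB targets 0 passed, with a median of -0.19. Tnfaip2 was the highest with 1.25 (SE 0.25, adjusted p = 0.107), without overlap, and Birc3 followed with 0.19 (adjusted p = 0.554). Ccl2 and Cxcl1 were the lowest with -0.68 and -0.66 (adjusted p = 0.382 and 0.799). Nfkbia, the inhibitor that NF-kB induces, differed by -0.32 (SE 0.15, adjusted p = 0.474).

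Of 11 integrated stress response genes 0 passed, with a median of -0.13. Asns and Atf5 were highest with 1.27 and 0.37 (adjusted p = 0.445 and 0.699), and Ddit4 and Trib3 lowest with -0.92 and -0.75 (adjusted p = 0.579 and 0.588). Ddit4 was 13.49 in control 1, against 11.56 and 11.24 in the other controls and 10.92 to 11.63 in soy. Of 6 glucocorticoid targets 0 passed, with the lowest median of the 9 related lists, -0.91. Zbtb16, a zinc finger factor, was 13.03, 12.94 and 11.67 in control and 11.38, 10.33 and 10.85 in soy livers (-1.70, SE 0.40, adjusted p = 0.153). Fkbp5, a co-chaperone of the receptor, was 14.06, 13.13 and 13.07 in control and 12.52, 12.03 and 12.18 in soy livers (-1.18, SE 0.27, adjusted p = 0.146). Neither overlapped. The highest of this list were Sgk1 with 0.22 and Tat with -0.76 (adjusted p = 0.762 and 0.324). The 9 lists hold 111 different genes on the array, and 1 of them passed, against 0.532% of all genes.

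**Figure D4:**
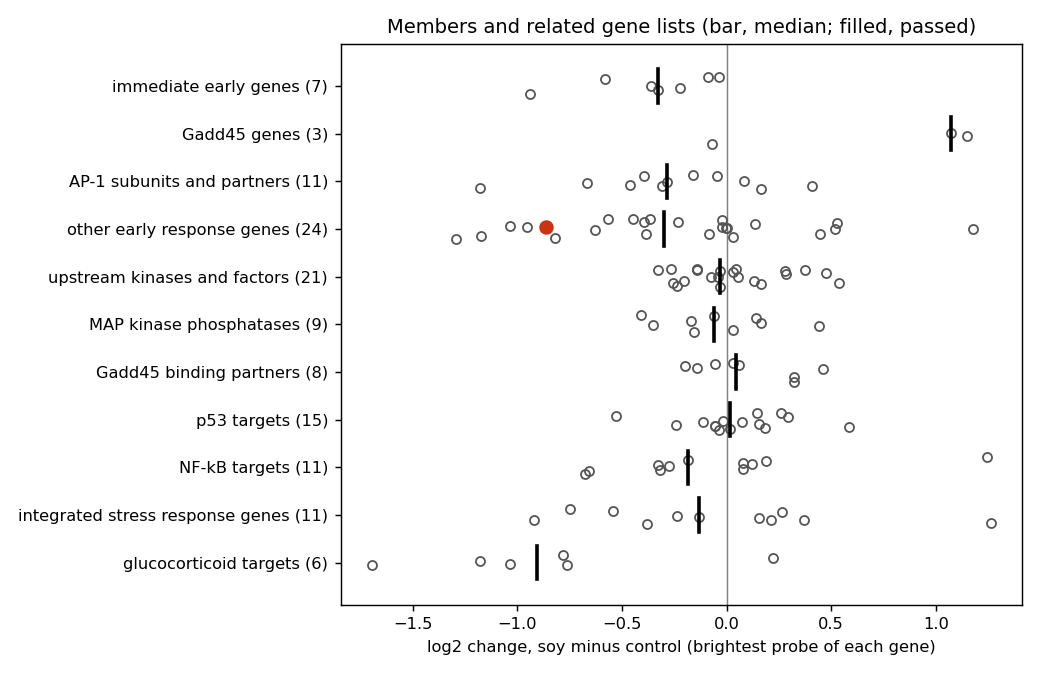
Log2 change of each gene (circles, brightest probe), soy minus control, for the immediate early genes, the Gadd45 genes and the 9 related lists, with the number of genes in parentheses and the list median as a bar. The filled circle is Klf10, and the glucocorticoid targets have the lowest median, -0.91.

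The hepatocyte markers Alb, Ttr, Apoa1, Cps1, Trf and Ahsg were well above background on all arrays, and 0 of these 6 passed. Among the lymphocyte markers the B cell gene Ms4a1 rose in soy livers. It was 6.69, 7.0003 and 6.82 in control and 7.60, 7.91 and 7.79 in soy livers (0.93, SE 0.13, adjusted p = 0.0394 with limma), and 2 of the 3 control livers and every soy liver gave a signal well above background. It moved in the direction of Gadd45a and Gadd45b. The B cell receptor gene Cd79a differed by 0.016 and was well above background on no soy array. The list's summed linear signal, in which the probe of Cd3e was the brightest, was 4817, 4083 and 4238 in control livers 1 to 3 and 4183, 4855 and 3982 in soy livers 1 to 3. Cd8a was well above background on no array. The part of these cells in the values of Gadd45a and Gadd45b was not tested.

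**Figure D5:**
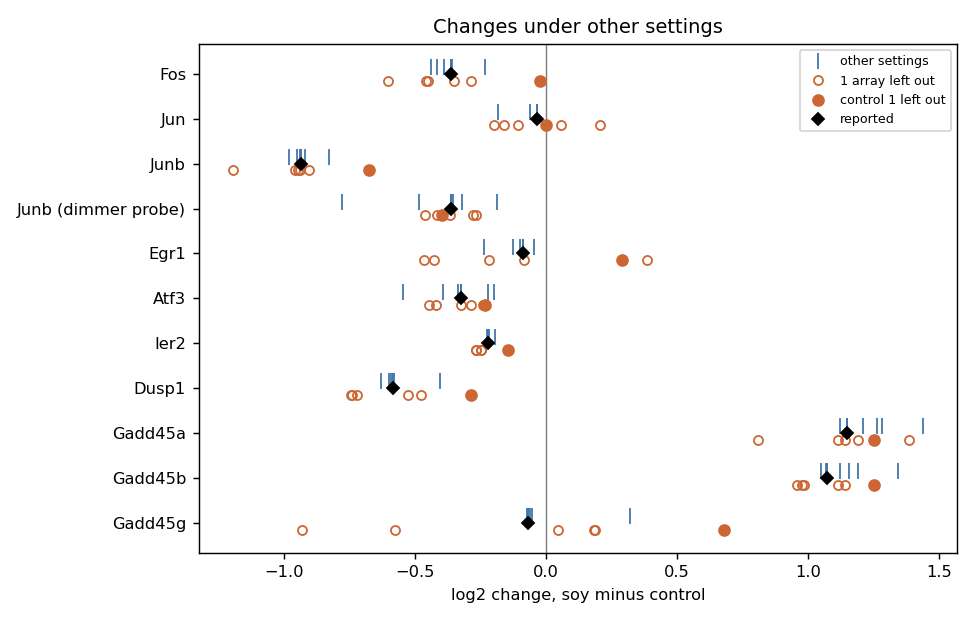
Log2 change of each member probe, soy minus control, as reported (diamonds), with 1 array left out (circles, filled for control 1) and under the other settings (ticks). Gadd45a, Gadd45b and Junb stay on their side of 0 under each setting shown, and Jun, Egr1 and Gadd45g cross 0.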

How the data were processed

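RNA from the liver of each of 6 mice was hybridized to a 1-colour Agilent array. The authors deposited scanner files made with Feature Extraction 11.5.1.1. These hold the median intensity of every spot and that of the background around it, neither background corrected nor scaled, and a processed intensity from which the software had subtracted background and a spatial trend. They also deposited a table of log2 values of the same spots, whose columns have the same lowest and highest value and medians of 7.33 to 7.34. The study's methods name limma and raw median signals, without saying how background was treated or arrays were scaled.

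Here the median intensities went through normexp (offset 50), quantile normalization and log2. Spots with an outlier mark were dropped, and replicate spots of 1 probe were averaged. All 56605 probes were fitted with lmFit and eBayes in limma 3.58.1 (R 4.3.3), and Benjamini-Hochberg adjustment ran over all of them. Intervals are those of single probes. Symbols came from RefSeq accessions. Where a gene had several probes the brightest is given, and counts as having passed when any of its probes did. Tables were made with pandas 2.3.3 and plots with matplotlib 3.10.9 in Python 3.11.15. The fit was tested on simulated data.

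The genes and lists were chosen with earlier results of these data known. From each list the text names the genes that passed and otherwise the 2 highest and 2 lowest changes, with others chosen after their values were seen (Srf, Cdkn1a and Nfkbia among them), and for Fos and Gadd45b the 3 genes most like each. Some list genes are not reported here. Of the 154 genes in the 16 lists, 153 were matched to a probe. The other settings were an offset of 16, uncorrected background, the processed intensity and a shift to the 75th percentile, the deposited log2 table, only probes well above background, eBayes with trend and robust settings, the replicate number or slide as a block, the mean of a gene's probes, adjusted p alone, values within a slide, and each array left out in turn.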

Additional observations from a re-analysis of the deposited data

How the results depend on the processing

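Of the 10 genes, 0 passed in the reported fit and with adjusted p alone, no background correction, an offset of 16, the deposited log2 values, eBayes with trend and robust settings, or the replicate number or slide as a block. With the processed intensity 2 passed, Gadd45b (1.34, adjusted p = 0.0117) and Junb (-0.98, adjusted p = 0.0366). With the 75th-percentile shift and with only probes well above background 1 passed, Gadd45b (adjusted p = 0.0480 and 0.0348). With 1 array left out 0 to 1 passed. Over the 15 other fits, the adjusted p of Gadd45b was 0.0117 to 0.203, that of Gadd45a 0.0556 to 0.350 and that of the brighter Junb probe 0.0366 to 0.375, each with 1 direction throughout. The direction turned for Gadd45g with slide as a block (0.32), and with 1 array left out for Gadd45g (-0.93 to 0.68), Egr1 (-0.47 to 0.38) and Jun (-0.20 to 0.21). The median change of the 10 genes stayed below 0 in each setting, within slides too (-0.18 and -0.30), and lay between -0.40 and -0.010 with 1 array left out.

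Of all probes 198 passed (59.6% of them higher in soy). There were 77 with an offset of 16, 13138 with the processed intensity (90.8% higher), 299 with the 75th-percentile shift, 497 with only probes well above background, 78 with the replicate block, 25 with slide as a block, and 25 to 203 with 1 array left out. The processed intensity and the 75th-percentile shift moved the median change of all probes from -0.010 to 0.125 and 0.134. Of the related genes 1 passed (Klf10). There were 16 with the processed intensity, 2 each with the 75th-percentile shift, only probes well above background and the trend and robust settings (Klf10 and Btg2), 0 with an offset of 16, the replicate block or slide as a block, and 0 to 3 with 1 array left out (3 without control 3, namely Btg2, Tat and Trib3). The cause of these shifts was not tested. The filter kept probes well above background on every array of the control group, of the soy group or of both, so fewer probes were tested. Deviations from the group mean of arrays with the same replicate number correlated at 0.103, -0.055 and 0.102 over 32338 probes, so the numbers were not taken to pair the mice.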

Other observations

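Values of other cell type markers belong to no comparison above. Of 7 Kupffer cell markers 0 passed, and their summed linear signal was 36125, 50942 and 58799 on control arrays 1 to 3 and 45872, 55228 and 67639 on soy arrays 1 to 3, with the probe of Cd5l the brightest. Of 6 endothelial markers, 6 stellate cell markers and 5 cholangiocyte markers 0 passed. Of 6 markers of red cells and neutrophils 0 passed. All 6 had a fitted change above 0, from 0.18 for Ngp, which was well above background on no array, to 0.62. Hba-a1, a haemoglobin chain, was highest in soy 2 with 18.04, against 16.88 to 17.32 on the other arrays.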
